A study of Mus musculus with 14 samples.

Results

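The libraries described here are the 7 that received only the vehicle: haematopoietic stem cell-enriched marrow cells of C57BL/6 mice injected with phosphate-buffered saline (PBS) for 1 day (3 libraries) or 20 days (4 libraries), out of 14 libraries in the series. They were chosen by their treatment label alone, and no comparison with the 7 libraries of mice given interleukin-1β is made. The PBS was given intraperitoneally, and each library came from cells pooled from 3 to 5 mice, so differences between single mice within a pool cannot be seen. The cells were sorted from marrow as lineage-negative, Sca-1-positive and Kit-positive (LSK) cells without Flk2 and CD48 and with CD150, the SLAM scheme for stem cells. The labels give no sex and no age, and name no genetic change. Library titles carry tags that the labels do not explain: at 1 day 1 library is tagged 10k and 2 are tagged E060216, and at 20 days 2 are tagged E061316 and 2, numbered 3 and 4, have no tag. Duration and tag therefore cannot be told apart.

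Haematopoietic stem cells sit at the top of the blood hierarchy. Most of them rest outside the cell cycle in the adult, held there by signals from the marrow around them, and they maintain themselves through a shared set of transcription factors that includes Gata2, Runx1, Tal1, Meis1, Hlf and Mecom. Daughter cells lose these genes stepwise and switch on those of megakaryocytes, red cells, granulocytes, monocytes or lymphocytes, and some lineage genes are already transcribed at low level in the stem cell, which is called priming.

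Levels are CPM, a gene's count divided by the library's total and set to a common total, here scaled with TMM factors (edgeR's correction for library composition). Where genes are compared with each other the level is CPM per kilobase of exon, written CPM per kb, and ranks are among 16263 nuclear protein-coding genes. The exon length is the union of all annotated exons of a gene. For Kit it is 8911 bases, against 5241 for its longest transcript, so levels per kilobase and ranks depend on the length used. Values for single libraries always stand in the same order: 10k, E060216 replicate 1 and E060216 replicate 2 at 1 day, then E061316 replicates 1 and 2 and untagged replicates 3 and 4 at 20 days. Values after ± are SDs over the 7 libraries, n = 7. A gene was called detected in a library at 3 or more counts, which is 0.102 to 0.139 CPM depending on depth, and a gene with no count in any library could have been present at up to 0.0174 CPM over all 7. Such floors cover counting error only, since the reads were amplified and carry no molecular tags.

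The libraries held 21654896 to 29441947 counts. In all, 13898 of 24833 genes were detected in all 7 libraries, 6965 in some and 3970 in none, 928 of which had no count at all. Of the 16263 ranked coding genes, 12192 were detected in all 7, the share to set beside the detection counts of gene lists below. Ribosomal protein genes took 2.39% to 3.72% of counts and mitochondrial transcripts 0.389% to 0.586%. Over 12745 genes with a mean of at least 1 CPM, the SD of the log2 difference between libraries was 0.33 to 0.44 in the 3 pairs of one tag, 0.36 to 0.57 in the 6 pairs of one duration but different tags, and 0.31 to 0.58 in the 12 pairs of different durations. The 2 untagged libraries were counted as 1 tag here and below. Untagged replicate 3 was nearer to E061316 replicates 1 and 2 (0.36 and 0.41) than to untagged replicate 4 (0.44). The 10k library and untagged replicate 4 stood farthest from the others, with median distances of 0.55 and 0.54 against 0.36 to 0.41 for the other 5. Xist, the RNA that coats the inactive X chromosome, was at 221 to 487 CPM, and the Y-linked Ddx3y and Eif2s3y had 13 and 3 counts in all, 12 and 3 of them in E060216 replicate 1. Reads of Xist and of its antisense partner Tsix cannot be told apart, since the kit does not mark strand.

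That library also stood apart by a set of genes. In E060216 replicate 1 of 1 day, 57 genes had at least 30 counts while each of the other 6 libraries had under 3, a pattern found for 0 or 1 gene in each other library. They were led by genes best known from neurons and glia: Snap25, a protein of synaptic vesicle fusion, with 451 counts, Sparcl1, a secreted astrocyte protein, with 231, Mobp, a myelin protein, with 224, and Syt1, a vesicle calcium sensor, with 135. Together the 57 genes took 3748 counts, 0.0153% of that library. These genes were singled out after their values were seen, and where the transcripts came from was not tested.

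Levels were read for 6 stem cell marker genes, Kit, Ly6a, Slamf1, Procr, Mecom and Hlf. Kit, Ly6a and Slamf1 encode proteins that the sort itself selected for, so their presence does not check the stem cell label. All 6 were detected in all 7 libraries, as were 12192 of the 16263 ranked coding genes. The sum of the 6 markers was 1257 to 2522 CPM of library totals, or 0.126% to 0.252% of all counts. Kit, the receptor for stem cell factor, was at 834, 1331 and 1675 CPM at 1 day and 1427, 1451, 1113 and 596 CPM at 20 days. Its 2 lowest values were those of untagged replicate 4 and the 10k library, and the durations overlapped. Mecom, a zinc-finger factor needed for stem cell maintenance, was at 116, 215 and 250 CPM at 1 day and 236, 242, 192 and 127 CPM at 20 days and was lowest in those same 2 libraries. Hlf, a bZIP factor confined in blood largely to stem cells, was at 247, 374 and 326 CPM at 1 day and 302, 312, 309 and 224 CPM at 20 days, again lowest in those 2.

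The surface markers Ly6a, which encodes Sca-1, and Procr, the endothelial protein C receptor, did not share that order. Ly6a was at 115, 112 and 121 CPM at 1 day and 93.4, 102, 136 and 145 CPM at 20 days, highest in the 2 untagged libraries. Procr was at 75.4, 74.4 and 83.4 CPM at 1 day and 102, 86.2, 111 and 113 CPM at 20 days, so that its 20-day values all lay above its 1-day values. The log2 difference of Procr, 20 days minus 1 day, was 0.41 ± 0.13 (SE), with an adjusted p of 1.00 in edgeR's quasi-likelihood test. Slamf1, which encodes the CD150 of the sort, was at 56.9, 55.7 and 58.7 CPM at 1 day and 69.1, 68.2, 55.7 and 40.1 CPM at 20 days, the lowest being untagged replicate 4.

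Per kilobase the levels of the markers differed widely. Kit was at 135 ± 42.6 CPM per kb (rank 274), Ly6a at 97.8 ± 15.1 CPM per kb (rank 451), Procr at 45.4 ± 8.07 CPM per kb (rank 1333) and Hlf at 44.8 ± 7.44 CPM per kb (rank 1356). Mecom, whose exons are long, was at 15.8 ± 4.42 CPM per kb (rank 4057) and Slamf1 at 9.38 ± 1.57 CPM per kb (rank 5893). The genes of the proteins sorted against differed from each other. Flt3, which encodes Flk2, was at 45.8, 42.0 and 63.4 CPM at 1 day and 40.8, 58.0, 52.7 and 61.4 CPM at 20 days, close to Slamf1 per kilobase with 8.42 ± 1.50 CPM per kb (rank 6261). Cd48 was at 6.00, 3.79 and 3.99 CPM at 1 day and 2.79, 2.98, 3.13 and 3.69 CPM at 20 days, or 3.17 ± 0.910 CPM per kb (rank 8854), and highest in the 10k library. The gate reads surface protein and the libraries count RNA, and in a bulk sample a few cells with much RNA cannot be told apart from many cells with little.

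**Figure D1:**
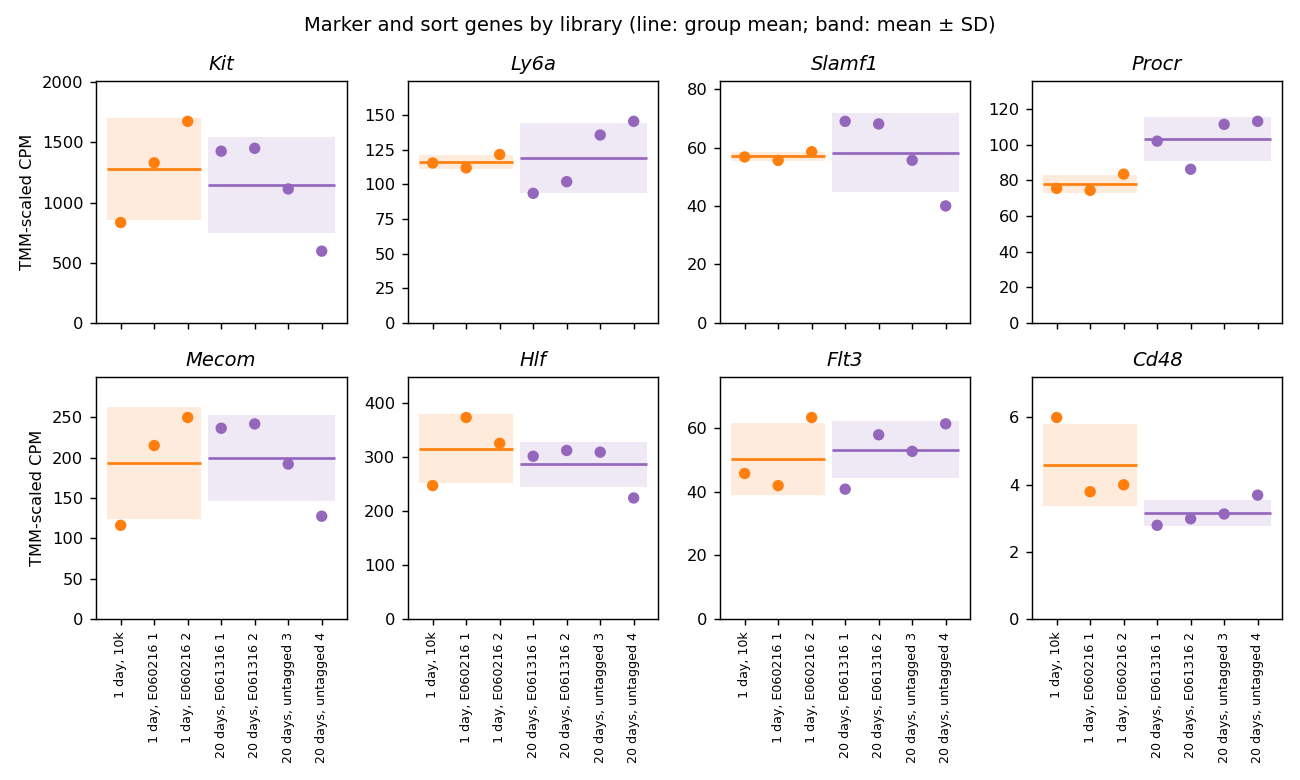
TMM-scaled CPM (vertical axes, each from 0) of the 6 stem cell markers and of Flt3 and Cd48 in each of the 7 PBS libraries, 1 point per library, with the group mean as a line and mean ± SD as a band (orange 1 day, purple 20 days). Kit and Mecom are lowest in the 10k library and in untagged replicate 4, while Procr lies at 74.4 to 83.4 CPM at 1 day and 86.2 to 113 CPM at 20 days.

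No gene dominated these libraries. The 10 most abundant genes held 2.51% to 3.20% of counts in a library, the 100 most abundant held 11.4% to 13.4%, and 1334 to 1533 genes made up 50% of counts. The gene with the highest mean count share was Adgrg1, an adhesion receptor (GPR56) of stem cells, at 4066, 3954 and 4311 CPM at 1 day and 4169, 4207, 3786 and 3121 CPM at 20 days. Untagged replicate 4 was the lowest, and per kilobase Adgrg1 ranked 16, at 728 ± 74.3 CPM per kb. Next by CPM came Serinc3, a membrane protein of the serine incorporator family, with 3347 ± 416 CPM, and Eef1a1, the elongation factor that brings transfer RNA to the ribosome, with 2906 ± 252 CPM.

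Per kilobase the highest level was that of B2m, the light chain of MHC class I, at 2740.4 ± 391 CPM per kb, first in every one of the 7 libraries. Its partners H2-D1 and H2-K1, the class I heavy chains, were at 1091 ± 118 CPM per kb (rank 4) and 911 ± 108 CPM per kb (rank 7). The 2 heavy chain genes are near-identical to other class I genes, so reads may be split among them and their levels are uncertain. Fos, a factor induced within minutes of a stimulus, ranked 2 at 1218 ± 611 CPM per kb, and Jun, its partner in the AP-1 complex, ranked 14 at 734 ± 278 CPM per kb. The other genes among the 15 highest per kilobase were Eef1a1, the antioxidant enzyme gene Gpx1 (1029 CPM per kb), Serinc3, the ubiquitin gene Ubb (825), the actin-binding Tmsb4x (822), Car2 and 4 ribosomal protein genes (Rpl32, Rps3a1, Rpl4 and Rplp0, at 730 to 914 CPM per kb). Further genes among the 15 highest by CPM were the chaperones Hsp90ab1 (2113 CPM) and Hspa8 (1796), the nucleic acid-binding Cnbp (1806), the ATP synthase subunit Atp5b (1705), the histone H3.3 gene H3f3b (1683) and the translation factor Eif5a (1594).

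Glycolytic genes were among the abundant ones: of 20 on the list, 10 ranked in the first 1000, and Ldha, lactate dehydrogenase A, was at 420 ± 58.4 CPM per kb (rank 36). All 20 were detected in every library, as were 12192 of the 16263 ranked coding genes. The median level of detected coding genes was 8.85 CPM per kb, and rank 1000 stood at 55.4 CPM per kb. Of 37 long-term stem cell genes in the table, 36 were detected in all libraries, 16 ranked in the first 1000 and 4 in the first 100, namely Adgrg1, Ifitm3 (693 ± 129 CPM per kb, rank 18), Txnip (463 ± 104 CPM per kb, rank 34) and Ifitm1 (353 ± 64.2 CPM per kb, rank 52). Ifitm1 and Ifitm3 encode small membrane proteins that block virus entry, and Txnip encodes an inhibitor of thioredoxin. The exception on that list was the imprinted RNA H19, with 25 counts in all. Angpt1, a ligand of the receptor Tie2, was at 542, 802 and 958 CPM at 1 day and 827, 840, 721 and 424 CPM at 20 days, lowest in untagged replicate 4 and the 10k library like Kit.

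**Figure D2:**
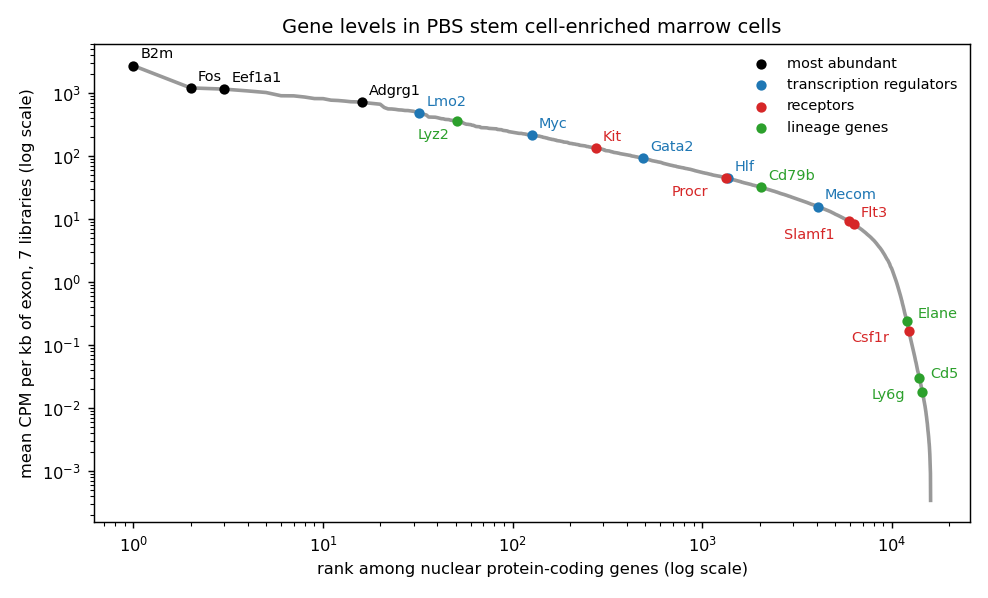
Mean level over the 7 PBS libraries (CPM per kb of exon, log scale) against rank among 16263 nuclear protein-coding genes (log scale); the grey line is every gene with a level above 0 and the points are named genes coloured by role. The curve falls from 2740 CPM per kb for B2m to 55.4 at rank 1000 and then drops steeply, with Elane, Csf1r, Cd5 and Ly6g below 1 CPM per kb.

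Transcription regulators of stem cells were nearly all present, over a wide range of levels. Of 62 on the list, 61 were detected in all 7 libraries, 13 ranked in the first 1000 and 2 in the first 100, and the median was 16.7 CPM per kb. The highest was Lmo2, the LIM-domain adaptor that joins Tal1 and Gata2 in one complex, at 1184, 1132 and 1040.1 CPM at 1 day and 993, 924, 1029 and 1096 CPM at 20 days. With 488 ± 40.5 CPM per kb it ranked 32, and the highest library was 1.28-fold above the lowest. Zfp36l2, which binds messenger RNA rather than DNA, was at 277 ± 25.9 CPM per kb (rank 76), and Nfe2, a bZIP factor of the megakaryocyte and red cell lineages, at 216 ± 11.8 CPM per kb (rank 124).

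Myc and Mycn were both abundant. Myc was at 535, 638 and 671 CPM at 1 day and 570, 534, 556 and 587 CPM at 20 days, a range that overlaps between durations, and ranked 126 at 215 ± 19.2 CPM per kb. Mycn was at 199, 340 and 369 CPM at 1 day and 382, 414, 320 and 296 CPM at 20 days, lowest in the 10k library, and ranked 429 at 101 ± 21.3 CPM per kb. Among the textbook stem cell factors, Gata2 was at 92.6 ± 4.53 CPM per kb (rank 486) with an SD of log2 CPM of only 0.07. Etv6 was at 83.7 CPM per kb (rank 560), Fli1 at 64.0 (rank 818), Gfi1b at 63.3 (rank 836), Meis1 at 44.4 (rank 1374), Runx1 at 13.8 (rank 4586) and Tal1 at 11.8 (rank 5097). The Hox genes stood lower, with Hoxa9 at 19.2 CPM per kb (rank 3432), Hoxb5 at 3.01 (rank 8937) and Hoxb4 at 1.74 (rank 9851). Hoxb3 was the one member under the floor in a library, with 118 counts in all.

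Factors of single lineages were spread over a wide range of levels. Of 29 in the table, 19 were detected in all libraries, 8 in some and 2 in none, and their median was 1.37 CPM per kb. The highest were Zfpm1, the Gata1 cofactor, at 81.1 CPM per kb (rank 588), Tcf3, an E protein of lymphoid development, at 63.3 (rank 835), Cebpb at 47.4, and Spi1, which encodes the myeloid factor PU.1, at 42.4 (rank 1453). Gata1, the red cell and megakaryocyte factor, was at 97.1, 59.6 and 58.8 CPM at 1 day and 48.6, 61.7, 43.7 and 50.8 CPM at 20 days, highest in the 10k library. Cebpa, the granulocyte factor, was at 1.11 to 3.84 CPM. Tbx21, the T-bet of type 1 T cells, had no count in any library, Eomes had 2 counts, Foxp3 had 7, and Ebf1, the B-cell factor, had 12.

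Factors of other tissues were at the floor with 1 exception. Of 11 in the table, 7 were detected in some libraries and 3 in none. Gata4 had no count, while Sox17 had 9 counts, all in the 10k library, and Foxa2 had 6, all in E061316 replicate 2. Neurod1, Olig2 and Sox2, with 6, 5 and 4 counts, were seen only in E060216 replicate 1, the library with the 57 genes. Hnf4a, best known as a factor of liver and gut, was detected in all 7 libraries, at 24.4, 24.2 and 30.1 CPM at 1 day and 16.2, 23.3, 31.9 and 16.8 CPM at 20 days. These values overlapped between durations, and per kilobase Hnf4a stood at 4.94 ± 1.24 CPM per kb (rank 7837).

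The cytokine and growth factor receptors included Kit at rank 274, Eng, a co-receptor for TGF-β ligands, at 72.2 ± 2.98 CPM per kb (rank 680), the endothelial receptor kinase Tie1 at 58.7 ± 2.90 CPM per kb (rank 921) and the interferon-γ receptor Ifngr1 at 57.2 ± 9.19 CPM per kb (rank 959). Both tumour necrosis factor receptors were close to each other, with Tnfrsf1a at 43.2 CPM per kb and Tnfrsf1b at 41.3.

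Of the 69 receptors, 56 were detected in all libraries, 9 in some and 4 in none. Of the myeloid colony-stimulating factor receptors, Csf3r for G-CSF was at 114, 102 and 132 CPM at 1 day and 106, 111, 122 and 85.5 CPM at 20 days, or 30.6 CPM per kb. Csf2ra for GM-CSF was at 15.9 CPM per kb, and Csf1r for M-CSF at only 0.167 CPM per kb, or 0.967 ± 0.495 CPM. Il1r1, the receptor of interleukin-1, was at 9.08 ± 4.01 CPM. Its highest value was in E060216 replicate 1, and with 1.43 CPM per kb it ranked 10133. Il7r and Il2ra, receptor chains of lymphocytes, and Prlr, the prolactin receptor, had no count in any library, and Egfr had 1 count.

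Adhesion and homing receptors were detected in all libraries for 43 of 52 genes and in some for 9. After Adgrg1 the highest were Cd81, a tetraspanin, at 146 CPM per kb (rank 242), the integrin chain Itgb1 at 109, Cd47, which protects cells from phagocytosis, at 105, Cd9 at 98.0 and Esam at 85.9. Itga2b, the CD41 of platelets, was at 425, 324 and 363 CPM at 1 day and 333, 389, 341 and 414 CPM at 20 days, or 67.8 CPM per kb. Cxcr4, which holds stem cells in the marrow through the chemokine Cxcl12, was at 19.4 ± 1.95 CPM. Ccr2, Ccr7 and Cx3cr1, chemokine receptors of mature leukocytes, had 43, 35 and 43 counts in all.

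Many genes of mature lineages were at or near the floor, but several lineage lists had single members far above the rest. Megakaryocyte and platelet genes were nearly all present, with 20 of 21 detected in all libraries, 6 in the first 1000 ranks and a median of 11.0 CPM per kb. Pf4, platelet factor 4, was at 190, 79.8 and 73.3 CPM at 1 day and 63.2, 70.9, 89.3 and 116 CPM at 20 days, highest in the 10k library, and other leading members were Cd9, Zfpm1, Itga2b and Nrgn (58.5 CPM per kb). Vwf, von Willebrand factor, was at 177 ± 38.4 CPM. P2ry12, a platelet ADP receptor, had 49 counts.

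Of 16 erythroid genes, 11 were detected in all libraries. The list was led by Car2, a carbonic anhydrase, at 2249.5, 2074 and 1813 CPM at 1 day and 1632, 1557, 1772 and 1923 CPM at 20 days, with rank 12 among all coding genes and 768 ± 100 CPM per kb. The remaining members were far lower, with the globin gene Hbb-bt at 17.3 CPM per kb and the erythropoietin receptor gene Epor at 14.1. The globin genes have near-identical copies, so their separate levels are uncertain. Slc4a1, the band 3 anion exchanger of red cells, had 12 counts.

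Among 16 neutrophil genes, 6 were detected in all libraries and the median was 0.165 CPM per kb. Prtn3, proteinase 3, was at 116, 87.4 and 118 CPM at 1 day and 112, 105, 137 and 156 CPM at 20 days, or rank 733, while its neighbour in granule biology Elane had 41 counts in all and Mpo was at 3.65 ± 1.88 CPM. Ly6g, Mmp8 and Fcnb of late neutrophils had 3, 6 and 6 counts. Lyz2, the lysozyme of monocytes and macrophages, was at 566, 450 and 461 CPM at 1 day and 453, 437, 438 and 489 CPM at 20 days, rank 51 at 357 ± 34.5 CPM per kb. The next member of its list of 21, Cd68, was at 10.4 ± 1.19 CPM per kb, and the list median was 0.812 CPM per kb. Ly6c2 and Ccr2 of inflammatory monocytes had 3 and 43 counts. The complement gene C1qb of macrophages was detected in every library, at 6.53, 6.22 and 5.40 CPM at 1 day and 7.57, 2.02, 2.59 and 3.11 CPM at 20 days.

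Lymphoid lists showed the same uneven pattern. Of 14 B-cell genes, 3 were detected in all libraries, with Cd79b, a signalling chain of the B-cell receptor, at 47.7, 42.1 and 45.5 CPM at 1 day and 40.6, 44.4, 49.8 and 51.9 CPM at 20 days and its partner Cd79a at 0.314 ± 0.401 CPM. Rag1, the V(D)J recombinase subunit, had 24 counts. Of 12 T and NK cell genes, 4 were detected in all libraries and 3 in none. Nkg7, a cytotoxic granule protein, was at 66.1, 36.3 and 38.7 CPM at 1 day and 33.7, 38.8, 43.3 and 48.5 CPM at 20 days and Lck, a T-cell kinase, at 17.9 ± 3.24 CPM, whereas Cd3g and Zap70 of the T-cell receptor had no count and Cd3d had 7.

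Of 15 mast cell, basophil and eosinophil genes, 3 were detected in all libraries, led by Cpa3, a mast cell protease, at 5.60 ± 1.53 CPM, and Tpsab1, a tryptase, had no count. Of 16 genes of dendritic cells and MHC class II, 11 were detected in all libraries. The class II chaperone Cd74 was at 120, 85.3 and 111 CPM at 1 day and 112, 107, 141 and 176 CPM at 20 days and the class II chain H2-Ab1 at 98.3, 68.3 and 91.9 CPM at 1 day and 84.9, 98.6, 116 and 149 CPM at 20 days, both highest in untagged replicate 4. Of the 8 members with a mean of at least 10 CPM, 7 were highest in that library, against 22.1% of all 9422 genes and 67.5% of the 311 genes with transcripts of up to 1000 bases. Siglech of plasmacytoid dendritic cells had 1 count in all, and Itgax, the CD11c of dendritic cells, 14.

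Endothelial and stromal genes were detected in all libraries for 10 of 23. The highest by CPM were Tek (94.7 ± 21.9 CPM), Pecam1 (59.7 ± 11.9 CPM), Emcn (31.4 ± 3.73 CPM) and Col1a2 (24.1 ± 4.38 CPM). Tek, the Tie2 receptor, is also a stem cell gene. Cdh5, the cadherin that defines endothelial cells, had 23 counts, and the stromal genes Col3a1 and Acta2 had 2 and 3.

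**Figure D3:**
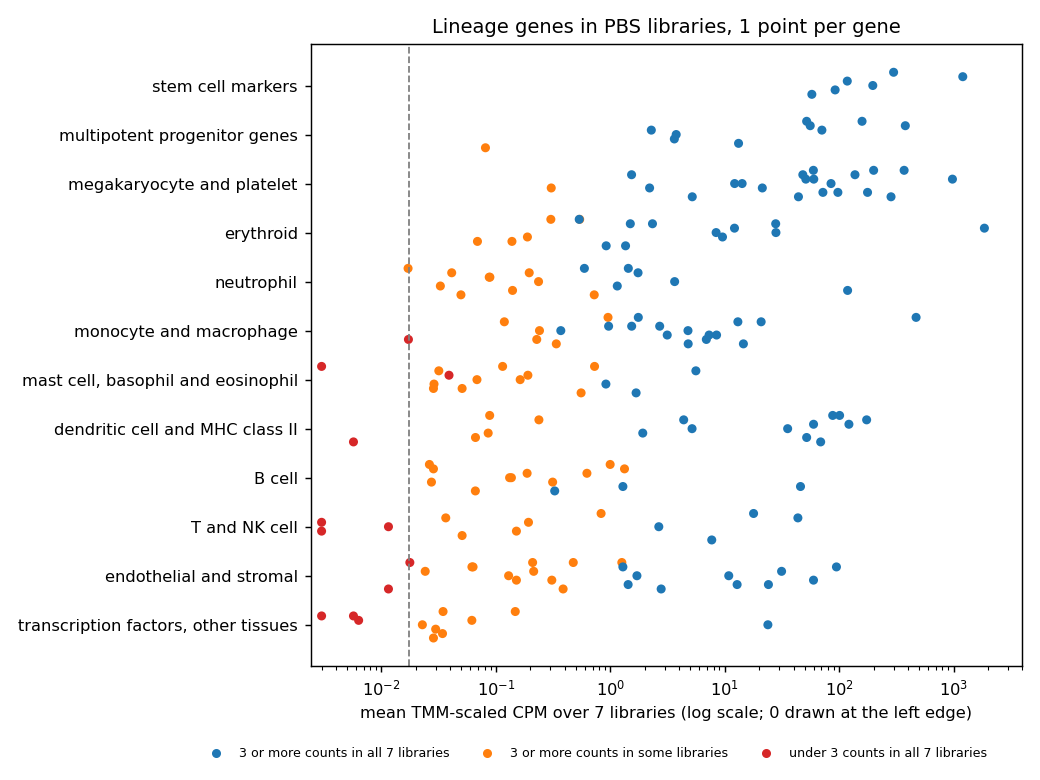
Mean TMM-scaled CPM over the 7 PBS libraries (log scale) for each gene of 12 lists, 1 point per gene, coloured by whether the gene reached 3 counts in all, some or none of the libraries; the dashed line is the level of 3 counts over all 7 libraries, 0.0174 CPM. Every stem cell marker and most megakaryocyte genes lie above 10 CPM, while the neutrophil, B cell, T and NK cell, and mast cell lists lie mostly below 1 CPM apart from single members such as Prtn3, Cd79b and Nkg7, and Car2 and Lyz2 stand far above the rest of theirs.

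Genes of dividing cells were present throughout. All 24 mitosis genes and all 26 DNA replication genes were detected in every library, as were 12192 of the 16263 ranked coding genes. Their medians were 26.9 (mitosis) and 36.1 CPM per kb (DNA replication), against 8.85 for coding genes detected in all libraries. The mitosis list summed to 3291, 3327 and 3113 CPM of library totals at 1 day and 2805, 2984, 2647.5 and 2571 CPM at 20 days. These sums did not overlap between durations, but no tag occurs at both, and the difference of the sums was not tested. Top2a, the topoisomerase of chromosome separation, was at 432, 450 and 493 CPM at 1 day and 418, 457, 367 and 313 CPM at 20 days. Of the 24 mitosis genes, 12 were highest in the 10k library and 12 lowest in untagged replicate 4, against 22.9% and 29.8% of all 9422 genes with a mean of at least 10 CPM. Mcm6, part of the replication helicase, was at 214 ± 29.0 CPM per kb (rank 128). Among G1 regulators Cdk4 led with 187 ± 27.6 CPM per kb (rank 159), followed by Ccnd2 with 55.3 ± 9.17 CPM per kb and Ccnd3 with 41.6 ± 4.91 CPM per kb.

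Inhibitors of the cell cycle were present beside them. Trp53 was at 76.3 ± 6.17 CPM per kb and Cdkn2d, a p19 inhibitor of Cdk4, at 57.3 ± 11.8 CPM per kb. Cdkn1c, the p57 inhibitor tied to stem cell rest, was at 52.0, 45.8 and 41.7 CPM at 1 day and 50.5, 41.2, 48.4 and 55.0 CPM at 20 days, with overlapping durations. Cdkn2a, the Ink4a and Arf gene, had no count in any library. Of 26 imprinted genes, 18 were detected in all libraries, among them Slc22a3 (36.8 ± 6.90 CPM per kb), Grb10 (19.8 ± 3.81 CPM per kb) and Ndn, a protein of the melanoma antigen family, at 61.5, 59.6 and 54.9 CPM at 1 day and 62.2, 63.1, 60.0 and 57.1 CPM at 20 days. Igf2 and its neighbour H19 had 31 and 25 counts. All 36 interferon response genes were detected in every library, as were 12192 of the 16263 ranked coding genes. The list was led per kilobase by Bst2 (97.3 ± 21.7 CPM per kb), Ifi27 (87.8 ± 15.1 CPM per kb) and Ifi47 (84.7 ± 8.77 CPM per kb).

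Most genes varied little between the 7 libraries. Among 9422 named genes with a mean of at least 10 CPM, the median SD of log2 CPM (with 0.5 CPM added) was 0.20, the 90th percentile was 0.37 and 68.0% lay under 0.25. The most even gene was Ptpn6, the phosphatase SHP-1 of blood cells, at 387, 398 and 401 CPM at 1 day and 399, 404, 386 and 396 CPM at 20 days, an SD of 0.03 on the log2 scale. The next 9 were Atg4b, C1galt1c1, Pxk, Arpp19, Snw1, Tspan3, Smim14, Ttc4 and Scp2, with SDs of 0.03 to 0.04. The reference genes Actb, Gapdh and Hprt moved more than these most even genes, with SDs of 0.21, 0.21 and 0.11. The 16 genes of the reference list had a median SD of 0.18, against 0.20 for all 9422 genes.

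At the other end, 12 genes had an SD above 1. They included immediate early genes, which a cell transcribes within minutes of a stimulus without new protein, and heat shock genes. Of the 20 most variable genes, 9 were on the list of 27 such genes, and of the 50 most variable, 14 were, against 24 of all 9422 genes. That list was chosen with earlier results of these data known. The 50th gene had an SD of 0.70. The promoters of 4 of them are shown here because the genes differed most between libraries or, for Fos, were the most abundant. They are the 250 bases before the RefSeq start (build GRCm38.p6), 5′ to 3′ on the gene's strand. Capitals mark matches on either strand to TGACG, the short form of the cAMP response element, to the heat shock element GAANNTTC and to the TATA box TATAAA. The full element TGACGTCA, which contains the short form, and the CArG box of serum response factor were also searched.
Atf3 (chr1:191183334-191183583, minus strand): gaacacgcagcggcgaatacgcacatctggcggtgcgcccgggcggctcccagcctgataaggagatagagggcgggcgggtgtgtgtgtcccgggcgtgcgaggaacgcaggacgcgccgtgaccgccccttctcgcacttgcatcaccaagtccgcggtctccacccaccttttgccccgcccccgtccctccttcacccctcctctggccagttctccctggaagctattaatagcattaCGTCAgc
Nr4a1 (chr15:101266596-101266845, plus strand): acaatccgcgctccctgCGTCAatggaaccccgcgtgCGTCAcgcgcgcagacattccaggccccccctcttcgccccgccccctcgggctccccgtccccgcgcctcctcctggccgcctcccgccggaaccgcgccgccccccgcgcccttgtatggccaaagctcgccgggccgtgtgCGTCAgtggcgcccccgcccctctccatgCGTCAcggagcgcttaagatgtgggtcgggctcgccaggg
Hspa1b (chr17:34959239-34959488, minus strand): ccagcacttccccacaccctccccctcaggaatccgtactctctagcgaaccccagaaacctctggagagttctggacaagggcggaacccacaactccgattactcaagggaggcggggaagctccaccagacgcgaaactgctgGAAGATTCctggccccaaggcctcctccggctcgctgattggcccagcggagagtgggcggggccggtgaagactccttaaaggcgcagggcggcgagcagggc
Fos (chr12:85473640-85473889, plus strand): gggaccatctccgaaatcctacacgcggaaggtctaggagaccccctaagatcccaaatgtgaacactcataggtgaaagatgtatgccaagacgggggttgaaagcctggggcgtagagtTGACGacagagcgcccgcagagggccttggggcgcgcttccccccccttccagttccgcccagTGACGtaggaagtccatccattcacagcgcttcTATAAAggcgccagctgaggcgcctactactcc

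The windows differ in what they hold. That of Nr4a1 has 4 short forms, that of Fos has 2 and a TATA box, that of Atf3 has 1, and that of Hspa1b has 1 heat shock element and no short form. Of the 14 listed genes among the 50 most variable, 13 had a RefSeq window searched. Windows on chromosome 18 were left out for these genes, which dropped Egr1, but were kept in the count over all windows. Of the 13 windows, 8 held the short form, 1 the full element (Btg2), 1 the heat shock element and 1 a CArG box (Zfp36). Among all 32851 RefSeq promoter windows of the same length, 17.8% held the short form, 1.55% the full element, 6.69% the heat shock element, 12.4% the TATA box and 1.47% a CArG box. A match of letters is a description of the sequence, not a site in use.

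Atf3, a stress-induced bZIP factor, was at 136, 0.0399 and 0.370 CPM at 1 day and 2.70, 1.49, 8.67 and 5.86 CPM at 20 days. The 10k library held 2827 of its 3326 counts, and the 2 libraries of E060216 were the lowest. Nr4a1, an orphan nuclear receptor, was at 996, 20.4 and 21.7 CPM at 1 day and 35.2, 21.7, 46.2 and 38.1 CPM at 20 days, high in the 10k library alone. Fosb, a relative of Fos, was at 371, 18.6 and 19.6 CPM at 1 day and 65.7, 35.2, 110 and 136 CPM at 20 days, with the E060216 pair lowest, then E061316, then untagged, then 10k. Klf4 (88.7, 5.11 and 5.29 CPM at 1 day and 15.1, 12.4, 33.1 and 35.5 CPM at 20 days) and Klf2 (271, 19.7 and 31.4 CPM at 1 day and 59.2, 51.8, 97.9 and 102 CPM at 20 days), zinc-finger factors of the same family, followed that same order of tags. Fos was at 4698, 1016 and 1401 CPM at 1 day and 2411, 2349.8, 4034 and 4146 CPM at 20 days, so the tags did not overlap, and Jun was at 3273, 1174 and 1443 CPM at 1 day and 2139.9, 2018, 2896 and 3446 CPM at 20 days. Egr1 was at 1079.9, 162 and 331 CPM at 1 day and 451, 383, 704 and 607 CPM at 20 days. How many of all genes followed the order of tags seen for Fosb was not counted.

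Heat shock genes had another order. Hspa1b, an inducible HSP70, was at 75.5, 23.2 and 1.70 CPM at 1 day and 9.60, 8.07, 7.63 and 52.5 CPM at 20 days: the 10k library and untagged replicate 4 were high, and E060216 replicate 2 was low while its partner was not. Its copy Hspa1a was at 35.7, 5.98 and 0.296 CPM at 1 day and 3.41, 2.62, 1.71 and 20.2 CPM at 20 days, the same order, though reads of these near-identical genes cannot be assigned with certainty. The constitutive Hspa8 and Hsp90ab1 varied far less, with SDs of 0.18 and 0.19 on the log2 scale, as did Myc with 0.13.

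The list as a whole summed to 9515 to 23274 CPM of library totals, or 0.952% to 2.33% of counts. Of the 24 members with a mean of at least 10 CPM, 20 were highest in the 10k library, against 22.9% of all 9422 genes, and in 18 the 2 E060216 libraries were the 2 lowest, against 6.77% of all genes. Of the 50 most variable genes, 29 were highest in the 10k library and 13 lowest there: all 14 on the list were highest there, and of the other 36, 15 were highest and 13 lowest. Among the other genes highest there were Hes1, a target of Notch, at 133, 5.82 and 6.40 CPM at 1 day and 5.66, 6.13, 9.85 and 10.2 CPM at 20 days, Id1, an inhibitor of basic helix-loop-helix factors, at 49.3, 2.31 and 2.26 CPM at 1 day and 3.10, 4.76, 5.68 and 5.82 CPM at 20 days, and Cdkn1a, the p21 inhibitor, at 55.3, 3.79 and 5.62 CPM at 1 day and 5.71, 4.19, 4.74 and 8.62 CPM at 20 days. Nfkbiz, Socs3, Gadd45b, Dusp5 and Rgs2, feedback and stress genes, were all highest there too, and 17 of the 20 most variable genes were. Exceptions were Eif5a2 (7.20, 13.6 and 12.6 CPM at 1 day and 17.6, 10.8, 12.7 and 1.73 CPM at 20 days), low in untagged replicate 4, Ehbp1, an adaptor of vesicle traffic, low in the 10k library at 2.02 CPM, and Slc15a2, a peptide transporter, highest in untagged replicate 4 at 29.1 CPM. This ranking depends on the 10k library. The genes were ranked by their spread over these same 7 libraries. Counts of genes highest or lowest in the 10k library follow in part from that selection. Without the 10k library, 20 of the 50 genes remained among the 50 most variable, 7 of the 14 listed genes among them. The minimum mean of 10 CPM was applied again there. Atf3, Hes1, Id1 and Cdkn1a then fell under it, at 3.19, 7.34, 3.99 and 5.45 CPM, and so left by level, whatever their spread. Without that library the mean level fell from 22.1 to 3.19 CPM for Atf3, from 169 to 30.6 CPM for Nr4a1, from 25.3 to 7.34 CPM for Hes1 and from 108 to 64.0 CPM for Fosb. It also fell by over 1.5 times for Klf4, Id1, Cdkn1a, Btg2, Hspa1a, Socs3, Gadd45b and Dusp5. By the mean SD within tags, which leaves the 10k library out and ignores differences between tags, 11 of the 50 genes and 2 of the 14 remained. What the tags stand for is not given in the labels, and their part in these values was not tested.

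**Figure D4:**
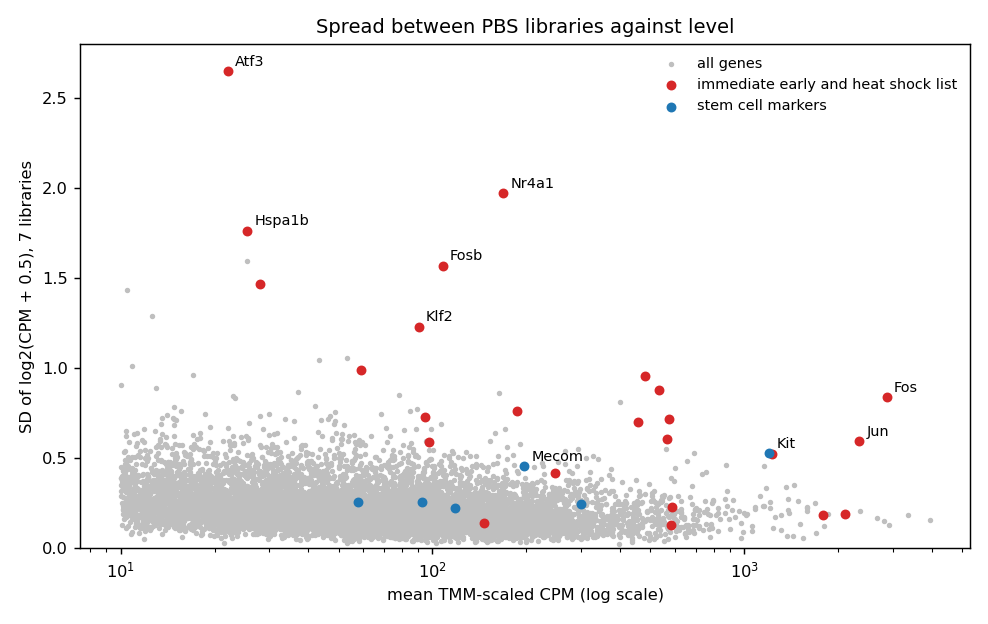
SD of log2(CPM + 0.5) over the 7 PBS libraries against mean TMM-scaled CPM (log scale), 1 point per named gene with a mean of at least 10 CPM; red points are the immediate early and heat shock list and blue points the 6 stem cell markers. The bulk of genes lies near the median SD of 0.20, and Atf3 (2.65), Nr4a1 (1.97), Hspa1b (1.76) and Fosb (1.57) lie highest.

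A second pattern ran along transcript length. Among 343 genes whose longest transcript was up to 1000 bases, the median log2 deviation from the mean of the 7 libraries was 0.28 in the 10k library and 0.37 in untagged replicate 4, and between -0.24 and -0.02 in the other 5. Among 1415 genes with transcripts over 6000 bases it was -0.17 and -0.20 in those 2 libraries, -0.01 in untagged replicate 3 and 0.06 to 0.13 in the other 4. Of 80 cytosolic ribosomal protein genes, which are short, 76 had their 2 highest values in the 10k library and untagged replicate 4, against 22.2% of all 9422 genes and 85.2% of genes of up to 1000 bases. The low values of Kit, Mecom and Hlf in these 2 libraries, and the high values of Ifitm3 and Tmsb4x there, stand beside this shift. The other markers did not move alike in both: Ly6a and Procr were highest in untagged replicate 4, with no such rise in the 10k library. Slamf1 was low in untagged replicate 4 alone. The part of the shift in any of these values was not tested.

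**Figure D5:**
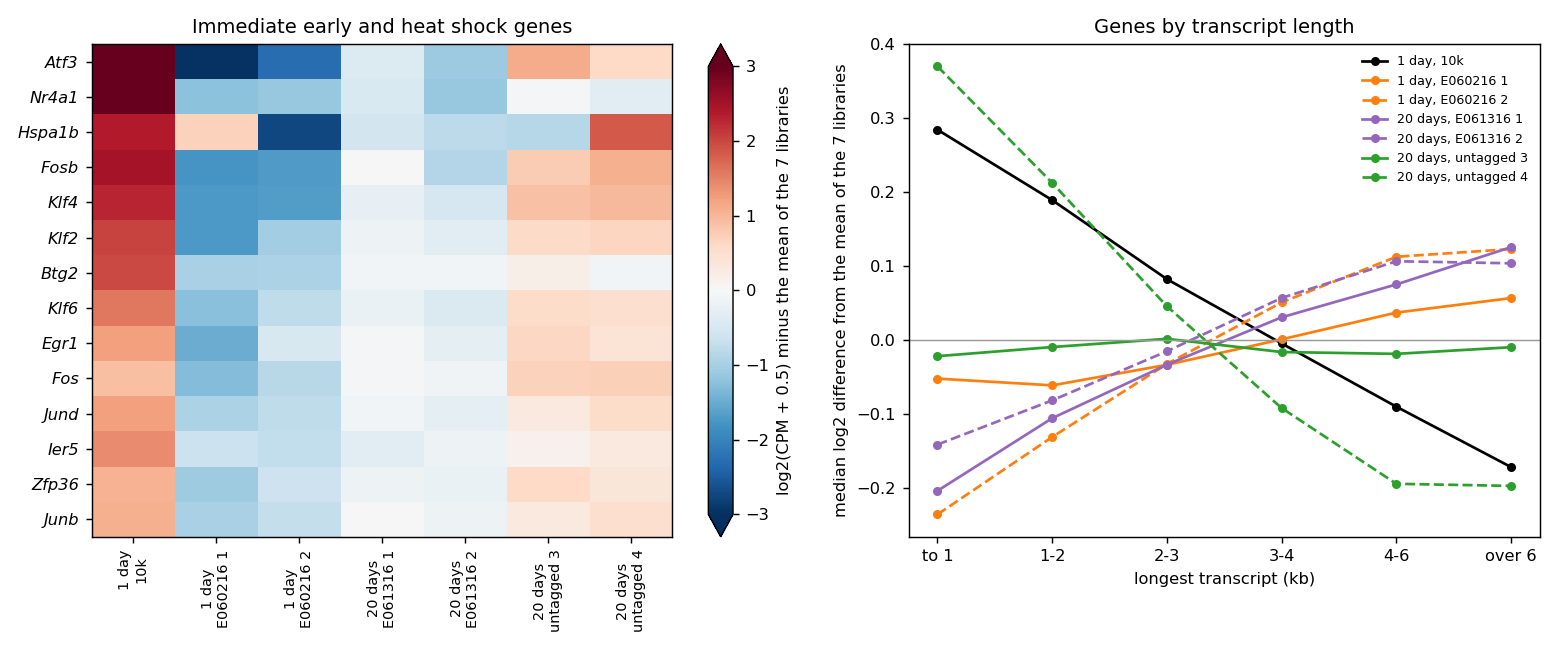
Left, log2(CPM + 0.5) minus the 7-library mean for the 14 immediate early and heat shock genes among the 50 most variable, by library (colour, red higher and blue lower); right, the median of the same difference over genes grouped by the length of their longest transcript in kilobases, 1 line per library. The left panel is reddest in the 10k library and bluest in the 2 E060216 libraries; on the right the 10k library and untagged replicate 4 run from 0.28 and 0.37 for the shortest genes to -0.17 and -0.20 for the longest.

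The durations were then compared over all genes. Of 14452 genes tested with edgeR's quasi-likelihood test on the 7 libraries, 0 (0%) differed between 20 days and 1 day of PBS at an adjusted p under 0.05 (Benjamini-Hochberg). At an unadjusted p under 0.05 there were 622, and DESeq2 called 3. Because no tag occurs at both durations, the fit measures how far these 2 sets of libraries differed and cannot separate duration from tag. For the markers, the log2 differences, 20 days minus 1 day, were -0.16 ± 0.31 (SE) for Kit, 0.04 ± 0.16 for Ly6a, 0.03 ± 0.18 for Slamf1, 0.04 ± 0.27 for Mecom and -0.14 ± 0.16 for Hlf, each with an adjusted p of 1.00.

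Within 20 days, the untagged libraries were compared with the E061316 libraries in the same kind of fit, with 1 mean per tag and 3 residual degrees of freedom. Again 0 of 14452 genes (0%) passed an adjusted p under 0.05, but 2724 had an unadjusted p under 0.05, the smallest adjusted p was 0.127, and DESeq2 called 750. Some immediate early genes had that smallest adjusted p in edgeR's test, as did Malat1, which is not on their list. How many of all genes shared it is not given here, and the genes named were chosen after their values were seen. The log2 differences, untagged minus E061316, were 1.32 ± 0.17 (SE) for Klf4, 1.28 ± 0.25 for Fosb, 0.84 ± 0.16 for Klf6 and 0.78 ± 0.14 for Fos, each with an adjusted p of 0.127 in edgeR's test. Malat1, a nuclear long noncoding RNA, differed by 1.36 ± 0.25 (adjusted p = 0.127). Of the markers, Ly6a differed by 0.52 ± 0.12 (adjusted p = 0.132), Kit by -0.75 ± 0.24 (adjusted p = 0.175) and Mecom by -0.58 ± 0.18 (adjusted p = 0.164). Without untagged replicate 3, which leaves untagged replicate 4 alone, 3116 genes were called, against 0 without untagged replicate 4. With all libraries kept the count also changed with the method, to 1305 without a low-count filter and 326 with all 14 libraries of the series in the fit.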

How the data were processed

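RNA of sorted cells was copied to cDNA with the SMARTer Ultra Low Input kit and sequenced as single-end reads, per the labels' protocols. Tools listed, per the submitters' processing notes, include STAR 2.4.2a, Trimmomatic 0.32 and HTSeq 0.6.1, with the build GRCm38.p4. No source used here gives the annotation or strand setting. The deposited table holds raw read counts per gene symbol. Of 24833 symbols, 23086 were matched to GENCODE M21 directly and 579 by a unique RefSeq synonym for exon lengths; the other 1168 held 0.303% of counts and were not ranked. The separate libraries came from separate pools of mice.

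Tests used edgeR 4.0.16 in R 4.3.3 (TMM factors, filterByExpr with a minimum count of 10, robust quasi-likelihood F-test, Benjamini-Hochberg adjustment), with DESeq2 1.42.0 as an alternative, after a check on simulated counts. The fits held group means only. List sums are CPM of library totals. The members and gene lists were chosen with earlier results of these data known. Named in full were the markers and sort genes, in each list up to 6 members of the highest level per kilobase and those at the floor, the 15 highest by CPM and per kilobase, and the 20 most and 10 least variable genes, leaving out predicted genes and some genes not reported here; others named, such as textbook factors and receptors, were chosen after their values were seen. Promoter sequences are from RefSeq (GRCm38.p6).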

Additional observations from a re-analysis of the deposited data

Results flagged for a closer look

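In the 4 libraries of 20 days, 57 values (31 list sums, the 6 markers and the 20 most variable genes) were searched for a library far from the other 3, and 4 had one; chance gives such a gap in about 1 in 20 groups. Untagged replicate 4 stood apart in 3 of them. Hlf was at 224 CPM there against 302 to 313 CPM in the other 3. Hspa1b was at 52.5 CPM there against 7.63 to 9.60 CPM. The summed level of cell cycle inhibitors and the retinoblastoma family was 1025 CPM of the library total there against 1125 to 1141 CPM. Untagged replicate 3 stood apart in Btg2, an antiproliferative immediate early gene, with 52.4 CPM against 43.4 to 43.6 CPM.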

How the results depend on the processing

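For 20 days against 1 day of PBS, 0 genes were called under upper-quartile factors, without a low-count filter, with at least 1 CPM in every library and with all 14 libraries in the fit, 3 with DESeq2, and 0 to 1 when each library was left out, the 1 without E060216 replicate 1. Between same-numbered libraries of E060216 and E061316 the correlations of deviations from the duration means were 0.10 and 0.09 for numbers 1 and 2. Libraries of different numbers were not correlated, so these values cannot decide whether the numbers pair the libraries. The replicate block on those 4 libraries called 2 genes, against 1 in the same 4 libraries without the block, a fit added after seeing the data. For untagged against E061316 at 20 days, 0 genes were called under upper-quartile factors and with at least 1 CPM in every library, 750 with DESeq2, 1305 without a low-count filter, 326 with all 14 libraries, and 0 to 3116 when each library was left out; the cause was not tested. Left-out libraries leave a lone library in some groups, which is assumed to vary like the others.

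Of the 50 most variable genes, 28 remained with a minimum mean of 5 CPM, 18 with 50 CPM, 11 by the mean SD within tags (2 immediate early or heat shock genes, against 14), and 20 to 46 when each library was left out, the 20 without the 10k library. The minimum mean of 10 CPM was applied again each time a library was left out, so some genes left by level. With the coefficient of variation, a lowess trend or library-total CPM, 37, 45 and 47 remained. The genes detected in every library were 15008 at 1 count, 12635 at 10 counts and 11737 at 1 CPM. Of the 100 highest genes per kilobase, 82 remained with the longest transcript as length. Of 488 named or listed genes with a mean of at least 1 CPM, the mean level moved by over 1.5 times for 15 without the 10k library, for Snap25 without E060216 replicate 1, for Cxcl12 without E061316 replicate 1, and for 0 without any of the other 4 libraries. Depth limits genes under about 0.1 CPM in a library.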
